A study of Mus musculus with 18 samples.

Results

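The kinesin genes were followed by name through 6 RNA-Seq libraries of ED1SQ4, a murine lung cancer cell line derived from cancers of cyclin E-overexpressing transgenic mice. All rows of the gene table whose symbol is Kif or Kifc followed by a number were taken, which gave 44 of 55450 genes. By their textbook roles, 15 of them are mitotic kinesins, 18 are transport kinesins and 9 have other roles. The other two are not motors: Kif1bp encodes a protein that binds kinesins and Kif16bos is an antisense RNA. Cells had been treated for 72 hours with vehicle or with 0.5 µM CYC065, an inhibitor of CDK2 and CDK9, and the sorting was done to see how cells with doubled DNA content differ in their transcripts from those without, with and without the drug. For each treatment there was RNA of unsorted cells, of cells sorted by DNA content as 2N and of cells sorted as 4N. The labels name the same cell line and no further genetic change for all 6 groups, so the origin from cyclin E-driven tumors is shared by vehicle and CYC065 cells. Sorting by DNA content cannot separate polyploid 4N cells from cycling 2N cells in G2 or mitosis, and in the 4N groups these cannot be told apart.

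Kinesins are motor proteins that use ATP to move along microtubules or to take them apart. Mitotic kinesins push spindle poles apart, trim microtubule ends, carry chromosome arms and organize the central spindle during cytokinesis, and the transcripts of most of them are made in G2 and mitosis. Transport kinesins carry vesicles, mitochondria, endosomes or cilium parts and work through the whole cell cycle as well as in cells that do not divide.

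Each condition was deposited as 3 columns, which the sample titles number as replicates and the library names give as parts of 1 library. The labels do not say whether separate cultures lie behind them. Over genes with whole counts, the 3 columns of a condition differed by no more than sampling noise, with a chi-square per degree of freedom of 0.991 to 1.02, so they were summed and counted as 1 sample. Between these columns the level of a mitotic gene spanned a median of 4.24% and at most 20.8%. On this reading there is 1 library per condition, and no p-value between conditions is given. The summed libraries held between 54750127 and 62795460 counts. Levels are given as CPM (counts scaled to a common library size) after scaling by the trimmed mean of M values (TMM), and differences as log2 ratios of these levels with 95% counting intervals in parentheses. The intervals cover counting error only, since with 1 library the variation from culture to culture is not known. Genes with fractional counts differed more between columns, with a chi-square per degree of freedom of 4.35 to 7.59, and their intervals can be too narrow. A gene is called higher or lower when its ratio passes 2-fold, a log2 ratio beyond 1 or -1, with at least 30 counts in 1 of the libraries compared. In bulk RNA, fewer cells of a type and less RNA per cell cannot be told apart. None of the 6 epithelial markers passed 43 counts in any library, with Epcam at 0 to 1 count, while the fibroblast marker Col1a1 stood at 160740 to 315471 counts. Of the 6 leukocyte markers, Ptprc, Adgre1 and Cd3e stood at 0 to 1 count and Cd79a and Lyz2 at 0 to 21 counts, while Cd68, which encodes a lysosomal membrane protein, stood at 194 to 1389 counts.

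The unsorted vehicle library stood further from the 2N vehicle library than the 4N library did. Between unsorted and 2N vehicle cells 10.5% of 13663 genes passed 2-fold, compared with 2.66% of 13364 between 4N and 2N vehicle cells. Under CYC065 the unsorted and 2N libraries differed past 2-fold in 6.75% of genes. Among kinesins the vehicle difference included Kif21b, with a log2 ratio of unsorted over 2N cells of 2.24 (2.15 to 2.32), Kif26b with 1.07 (1.02 to 1.12) and Kif17 with -1.24 (-2.03 to -0.53). No mitotic kinesin passed 2-fold between unsorted and 2N cells under either treatment.

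Of the 44 kinesin genes, 34 reached 30 counts in at least 1 library: 14 mitotic, 15 transport, 4 other and Kif1bp. Kif2b, a mitotic microtubule depolymerase, and Kif12 were at 0 in every library. Kif1a, Kif5a, Kif28, Kif6, Kif9, Kif19a, Kif26a and Kif16bos stayed under 30 counts everywhere. Kif1a and Kif5a are motors best known from neurons. The kinesin Cenpe, which holds chromosomes at kinetochores, has no Kif symbol and is given with the spindle partners.

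Divided by the length of all annotated exons of a gene, levels can be set roughly beside each other between genes. This length also counts exons that these cells may not use, so close ranks depend on it. On this scale the highest kinesin in 4N vehicle cells was Kif20a at 71.5 CPM per kb, followed by Kif5b at 47.3, Kif1c at 38.7 and Kif4 at 38.2. In 2N CYC065 cells the transport motors Kif1c and Kif5b led with 31.7 and 28.8 CPM per kb, and Kif20a stood at 21.2. Kif24 and Kif27 were among the lowest of the detected genes, at 1.44 and 0.497 CPM per kb in 4N vehicle cells.

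Promoters of the 2 classes, where at hand, differ in letters that the choice of members did not use. RefSeq promoter windows (GRCm38.p6, 250 bases before to 50 after a gene's RefSeq start) were at hand for 34 of the 44 genes. None was at hand for the transport genes Kif13b, Kif21b, Kif28, Kif5a, Kif5b, Kifc2 and Kifc3. The mitotic gene Kif20a, Kif19a and Kif1bp also lacked one. They were searched on both strands for TTTGAA, the letters of the cell cycle genes homology region through which many G2 and mitosis genes are controlled, and for CCAAT, a box bound by NF-Y; a TTTGAA and a CCAAT match can share at most 1 letter, at their ends. TTTGAA was found in 11 of 14 mitotic windows (78.6%), in 0 of 11 transport windows and in 2 of 8 others, against 18.1% of 27025 promoters in all. In 9 of those 11 mitotic windows a match lay within 30 bases of the start. CCAAT was found in 9 of 14 mitotic windows (64.3%), in 3 of 11 transport windows (27.3%) and in 37.9% of all promoters. Both motifs stood together in 8 of 14 mitotic windows, 0 of 11 transport windows and 7.12% of all promoters. The mitotic windows without TTTGAA were those of Kif18a, Kif2a and Kif2b. The windows of Kif14 (chr1:136467598-136467897) and Kif2c (chr4:117178723-117179022) lie inside the gene spans given below, not at their ends. Kif14 is counted with both motifs and Kif2c with TTTGAA. Kifc1 and Kifc5b, near copies of each other, are counted separately with both motifs. A match is a description of the letters and not evidence of a bound site. Stretches from 80 bases before to 10 after the start are printed for 3 mitotic genes that hold both motifs and, for contrast, for 2 transport genes, Kif3a with a CCAAT box only and Kif1c with neither. Capitals mark the motifs, which on the other strand read TTCAAA and ATTGG.
Kif11, chr19:37376302-37376391, plus strand: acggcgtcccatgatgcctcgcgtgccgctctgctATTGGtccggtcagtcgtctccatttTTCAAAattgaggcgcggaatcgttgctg
Kif18b, chr11:102925115-102925204, minus strand: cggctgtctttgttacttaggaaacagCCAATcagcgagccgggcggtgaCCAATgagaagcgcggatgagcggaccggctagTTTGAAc
Kif23, chr9:61946790-61946879, minus strand: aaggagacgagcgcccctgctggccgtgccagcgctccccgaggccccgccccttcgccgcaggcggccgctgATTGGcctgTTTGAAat
Kif3a, chr11:53567289-53567378, plus strand: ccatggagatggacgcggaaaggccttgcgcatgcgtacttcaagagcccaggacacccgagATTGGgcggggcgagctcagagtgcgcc
Kif1c, chr11:70700468-70700557, plus strand: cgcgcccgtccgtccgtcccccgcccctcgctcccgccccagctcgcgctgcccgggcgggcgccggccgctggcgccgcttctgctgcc

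Most mitotic kinesins were lower past 2-fold in CYC065 than in vehicle cells, in unsorted and in 2N cells. Of the transport kinesins tested, 12 of 14 in unsorted and 10 of 15 in 2N cells stayed within 2-fold. Most of all genes did so too, since 25.6% and 28.1% of them passed 2-fold in either direction. Summed over the mitotic members, levels were 1322 CPM in unsorted, 1233 in 2N and 1759.7 in 4N vehicle cells, and 492, 491 and 1039 CPM in the same 3 groups under CYC065. The summed transport kinesins ranged only from 1138 to 1389 CPM over the 6 libraries. Mitotic genes took 57.8% of all kinesin counts in 4N vehicle cells and 22.6% in unsorted CYC065 cells. Of the 14 detected mitotic genes, 13 had their highest level in 4N vehicle cells, where 21% of 14761 genes had theirs, and Kif2a in 2N vehicle cells. The lowest level was in 2N CYC065 cells for 9 of the 14 and in unsorted CYC065 cells for the other 5. All 3 CYC065 levels lay below all 3 vehicle levels for 9 of the 14, as they did for 32.0% of all genes. Between the highest and the lowest library the mitotic genes spanned 1.81-fold to 5.64-fold, with a median of 4.04-fold, and the transport genes a median of 1.73-fold. The plot of mitotic levels shows these orders gene by gene.

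**Figure D1:**
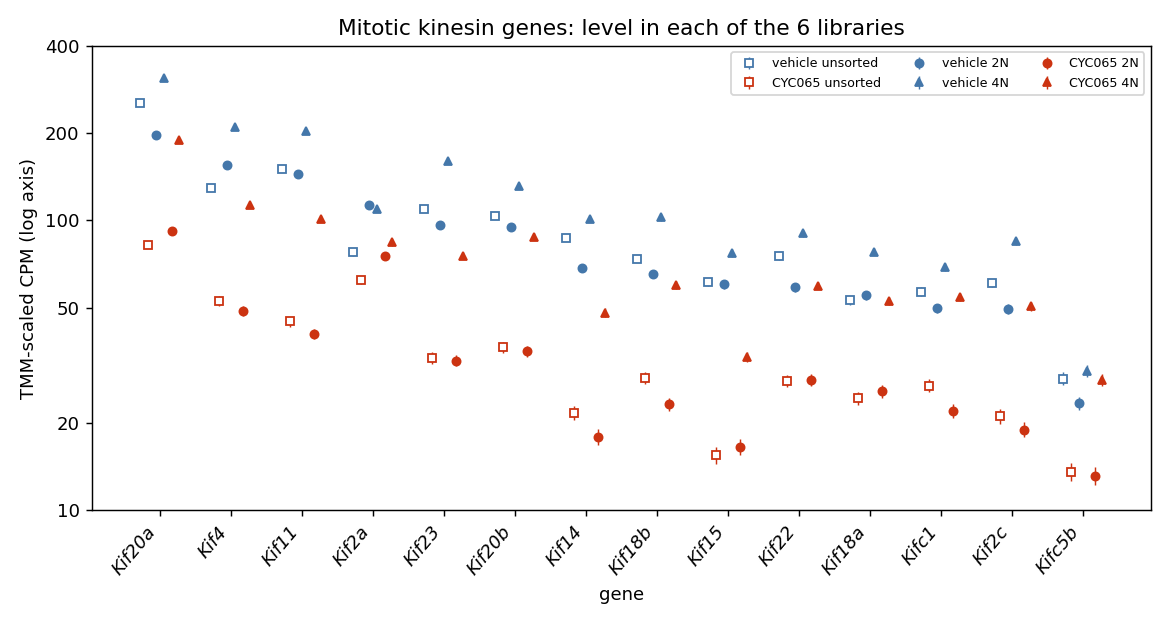
Level of each of the 14 detected mitotic kinesin genes in the 6 libraries, in TMM-scaled CPM on a log axis, ordered by the level in 2N vehicle cells. Each point is 1 library (blue for vehicle, red for CYC065, squares for unsorted, circles for 2N and triangles for 4N cells) and bars are 95% counting intervals. Blue triangles lie highest for 13 genes, and a red square or circle lies lowest for all 14.

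The motors that build the bipolar spindle were among those with the largest differences. Kif11 (chr19:37376403-37421859, plus strand, mm10), the plus-end motor that slides antiparallel microtubules to separate the poles, stood at 151, 145 and 204 CPM in unsorted, 2N and 4N vehicle cells and at 44.8, 40.6 and 101 CPM under CYC065. All of its CYC065 levels lay below all vehicle levels. The log2 ratio of CYC065 over vehicle was -1.75 (-1.81 to -1.68) in unsorted, -1.83 (-1.90 to -1.77) in 2N and -1.01 (-1.05 to -0.97) in 4N cells. In 2N cells this was a 3.57-fold lower level. Kif15 (chr9:122951046-123018733, plus strand), a motor that can share this work with Kif11, stood at 61.5, 60.3 and 77.3 CPM in the vehicle groups and at 15.5, 16.6 and 33.9 CPM in the CYC065 groups. Its groups did not overlap, and its ratio in 4N cells, -1.19 (-1.26 to -1.12), was the lowest of the mitotic genes there. The spindle motors thus stood lowest in 2N and unsorted CYC065 cells and highest in 4N vehicle cells.

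The minus-end motor Kifc1 (chr17:33875659-33890661, minus strand), which bundles spindle poles and clusters extra centrosomes, stood at 56.8, 49.8 and 69.1 CPM in unsorted, 2N and 4N vehicle cells and at 27.0, 22.1 and 54.6 CPM under CYC065. Its level in 4N CYC065 cells lay above that of 2N vehicle cells, so the treatments overlapped. The CYC065 over vehicle ratio was -1.07 (-1.16 to -0.98) in unsorted and -1.17 (-1.27 to -1.08) in 2N cells, past 2-fold, and -0.34 (-0.40 to -0.27) in 4N cells. Kifc5b (chr17:26917091-26932583, plus strand), a near copy of Kifc1 on the same chromosome, stood at 28.5, 23.4 and 30.3 CPM under vehicle and at 13.6, 13.1 and 28.2 CPM under CYC065, and passed 2-fold in unsorted cells only, with -1.07 (-1.19 to -0.94) there, -0.83 (-0.96 to -0.70) in 2N and -0.11 (-0.20 to -0.01) in 4N cells. The 2 genes share reads, and their counts are uncertain: 39.7% of the 50-base words of Kifc1 exons are also found in exons of other genes, chiefly Kifc5b, and 37.4% of those of Kifc5b. Their coding sequences were identical at 98.4% of 2016 aligned bases, with a longest identical run of 268 bases. An 80-base stretch of coding sequence of each gene, from a single exon (mm10), shows where they can be told apart most easily, with the 12 differing bases in capitals.
Kifc1, chr17:33886817-33886896, minus strand: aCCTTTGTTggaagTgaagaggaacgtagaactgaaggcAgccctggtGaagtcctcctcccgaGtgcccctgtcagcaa
Kifc5b, chr17:26920799-26920878, plus strand: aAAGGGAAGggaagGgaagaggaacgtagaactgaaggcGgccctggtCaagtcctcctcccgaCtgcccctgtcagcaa

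Of the kinesins that shorten or cap microtubule ends, 3 fell with CYC065 in unsorted and 2N cells and Kif2a did not pass 2-fold. Kif2c (chr4:117159639-117182639, minus strand), the depolymerase that corrects wrong attachments at centromeres, stood at 60.8, 49.5 and 84.7 CPM in unsorted, 2N and 4N vehicle cells and at 21.1, 19.0 and 50.5 CPM under CYC065. Its 4N CYC065 level was close to its 2N vehicle level, and the ratios to vehicle were -1.53 (-1.62 to -1.43), -1.39 (-1.49 to -1.29) and -0.75 (-0.81 to -0.68) in unsorted, 2N and 4N cells. Kif18a (chr2:109280738-109341747, plus strand), which damps chromosome movements at the metaphase plate, stood at 53.1, 55.2 and 78.1 CPM and, under CYC065, at 24.3, 25.7 and 52.8 CPM. Only its unsorted and 2N ratios, -1.13 (-1.22 to -1.03) and -1.10 (-1.19 to -1.01), passed 2-fold. Kif18b (chr11:102905529-102925124, minus strand), a plus-end partner of Kif2c on astral microtubules, stood at 73.9, 65.3 and 103 CPM and, under CYC065, at 28.7, 23.2 and 59.9 CPM, with ratios of -1.37 (-1.45 to -1.28), -1.49 (-1.58 to -1.40) and -0.77 (-0.83 to -0.72). Kif2a (chr13:106958996-107022126, minus strand), a depolymerase of spindle poles that is also used outside mitosis, stood at 77.6, 113 and 109 CPM under vehicle and at 62.3, 75.1 and 84.1 CPM under CYC065. It kept the narrowest range of the mitotic genes, 1.81-fold, and no ratio of it passed 2-fold; 19.7% of its 50-base words also lie in other genes, chiefly Dimt1, with which it shares exon positions.

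The chromokinesins, which bind chromosome arms, were lower as well. Kif4 (chrX:100625737-100727214, plus strand), which also shapes the central spindle, stood at 129.6, 155 and 211 CPM in unsorted, 2N and 4N vehicle cells and at 52.7, 48.8 and 113 CPM under CYC065. Its groups did not overlap, and the CYC065 ratio was -1.30 (-1.36 to -1.24) in unsorted, -1.67 (-1.73 to -1.61) in 2N and -0.90 (-0.94 to -0.86) in 4N cells. Of the 50-base words of Kif4, 14.5% also lie in other genes, chiefly Pdzd11, with which it shares exon positions. Kif22 (chr7:127027729-127042471, minus strand) stood at 75.4, 58.8 and 90.3 CPM and, under CYC065, at 28.0, 28.1 and 59.7 CPM. The 4N CYC065 level of Kif22 and its 2N vehicle level nearly coincided, and its ratios were -1.43 (-1.51 to -1.35), -1.06 (-1.15 to -0.98) and -0.60 (-0.66 to -0.54).

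The 4 motors of cytokinesis included the mitotic gene with the highest level per kb in all 6 libraries, Kif20a. Kif20a, which brings Aurora B to the central spindle, stood at 253, 198 and 310.3 CPM in unsorted, 2N and 4N vehicle cells and at 82.6, 92.2 and 189 CPM under CYC065, with ratios of -1.62 (-1.67 to -1.57), -1.10 (-1.15 to -1.05) and -0.71 (-0.75 to -0.68). Its exons overlap those of Cdc23 over 29.3% of their length. Kif23 (chr9:61915905-61946774, minus strand), the motor of the centralspindlin complex, stood at 109.6, 96.8 and 161 CPM and, under CYC065, at 33.5, 32.8 and 75.7 CPM. Its groups did not overlap, and all 3 ratios passed 2-fold, at -1.71 (-1.79 to -1.63), -1.56 (-1.64 to -1.48) and -1.09 (-1.14 to -1.04). Kif14 (chr1:136466343-136531511, plus strand), which recruits citron kinase to the midbody, had the widest range of the mitotic genes, with 87.2, 68.7 and 101 CPM under vehicle and 21.7, 17.9 and 48.1 CPM under CYC065. Its levels did not overlap either, and its ratios were -2.01 (-2.10 to -1.91), -1.94 (-2.04 to -1.84) and -1.07 (-1.13 to -1.01). Kif20b (chr19:34922361-34975745, plus strand), which acts in abscission, stood at 104, 94.9 and 132 CPM and, under CYC065, at 36.5, 35.4 and 87.9 CPM, with ratios of -1.50 (-1.58 to -1.43), -1.42 (-1.49 to -1.35) and -0.58 (-0.63 to -0.53). Of these 4 genes, Kif14 and Kif23 passed 2-fold in all 3 pairs of groups, and Kif20a and Kif20b in unsorted and 2N cells.

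Counted over the class, 13 of 14 mitotic kinesins were called lower with CYC065 in unsorted cells, all but Kif2a, and none higher, where 13.9% of 14084 genes tested were called lower. Their median log2 ratio was -1.47, compared with -0.07 over all genes. In 2N cells 12 of 14 were lower, where 13.3% of 14093 genes were, with a median of -1.40 beside -0.07. In 4N cells 4 of 14 were lower, where 11.4% of 14183 genes were: Kif11, Kif14, Kif15 and Kif23. The median there was -0.73 beside -0.03. All 14 counting intervals lay below 0 in each of the 3 pairs, as did those of 45.1%, 45.8% and 44.3% of all genes in unsorted, 2N and 4N cells. They lay wholly past 2-fold for 11 genes in unsorted cells, 11 in 2N cells and 3 in 4N cells, beside 10%, 9.66% and 8.26% of all genes in that direction. Scaled by library size alone, the median of all genes moved from -0.07 to 0.07 in 2N cells and from -0.03 to 0.11 in 4N cells, and the kinesins called in 2N cells were then 5 higher and 12 lower in place of 3 and 15, and in 4N cells 5 and 3 in place of 5 and 6. The calls lost on that scale were Kif18a, Kif20a and Kif22 in 2N cells and Kif11, Kif14 and Kif23 in 4N cells, and Kif26b and Kif3a were gained in 2N cells. On that scale 27.7% of all genes passed 2-fold in 2N cells and 25.7% in 4N cells, in either direction. In edgeR fits to the columns with a replicate block, 14 kinesins were called in unsorted, 19 in 2N and 10 in 4N cells, in either direction, beside 25.1%, 27.7% and 25.5% of all genes, and 13 between 4N and 2N CYC065 cells, beside 3.42%.

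The transport kinesins moved in both directions. In unsorted cells 2 of 14 tested were called higher with CYC065 and 0 lower, where 11.7% of all genes were higher, and their median was 0.15. In 2N cells 3 of 15 were higher and 2 lower, where 14.9% of genes were higher, with a median of 0.21. In 4N cells 4 of 15 were higher and 2 lower, where 14.1% of genes were higher, with a median of 0.31. The lower ones in both sorted pairs were Kif17 and Kifc3. With 14 or 15 genes tested, these counts are not read as a result about the class.

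**Figure D2:**
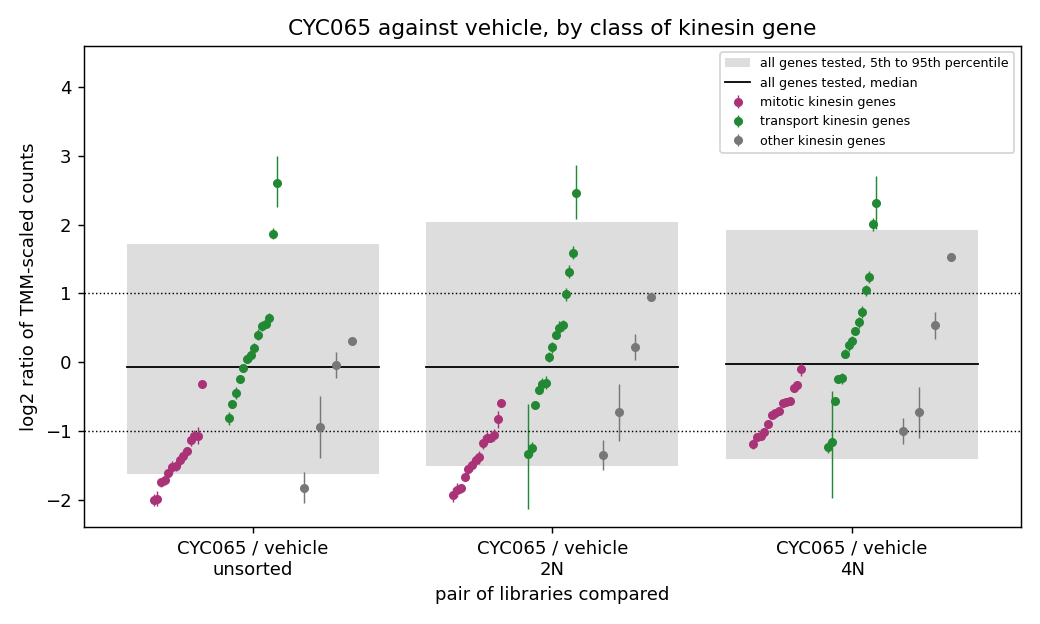
Log2 ratio of CYC065 over vehicle for mitotic, transport and other kinesin genes with at least 30 counts, in unsorted, 2N and 4N cells. Each point is 1 gene with its 95% counting interval, the grey band spans the 5th to 95th percentile of all genes tested, the black line is their median and dotted lines mark 2-fold. Mitotic genes lie below the median of all genes in all 3 pairs, with class medians of -1.47, -1.40 and -0.73, while transport genes lie on both sides of it.

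Among transport kinesins, Kifc2, Kif13b and Kif21b reached the largest ratios above 0 with CYC065. Kifc2 (chr15:76659858-76668196, plus strand), a C-terminal motor known from dendrites, stood at 1.24, 1.16 and 1.14 CPM in unsorted, 2N and 4N vehicle cells, which is 65 to 71 counts, and at 7.61, 6.40 and 5.70 CPM under CYC065. Its groups did not overlap, and the CYC065 ratio was 2.61 (2.25 to 3.00) in unsorted, 2.46 (2.08 to 2.87) in 2N and 2.31 (1.94 to 2.71) in 4N cells. Kif13b (chr14:64647265-64809617, plus strand), a kinesin of the third family that carries membrane proteins, stood at 29.0, 24.7 and 22.6 CPM and, under CYC065, at 106, 61.6 and 53.4 CPM. It was 3.64-fold higher in unsorted, 2.49-fold in 2N and 2.36-fold in 4N cells, again without overlap of the treatments. Kif21b (chr1:136131389-136177998, plus strand), which slows microtubule growth, stood at 115, 24.4 and 21.4 CPM under vehicle and at 96.8, 73.7 and 85.8 CPM under CYC065. The unsorted vehicle level was the highest of its 6 levels while both sorted vehicle levels were the lowest, so that CYC065 over vehicle was -0.25 (-0.30 to -0.20) in unsorted but 1.59 (1.51 to 1.68) in 2N and 2.00 (1.92 to 2.09) in 4N cells.

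Of those cilium motors of the second family that work as heterotrimers, Kif3a was called higher with CYC065 in 4N cells. Kif3b and Kif3c were not called in any pair. Kif3a gave log2 ratios of 0.52 in unsorted, 0.99 in 2N and 1.04 (0.96 to 1.13) in 4N cells, of which the last passed 2-fold. In 2N cells Kif3a stood just under the threshold and passed it in edgeR and DESeq2 on the columns (1.07 in both). Its partner Kif3b had an almost level course, with 0.05, 0.07 and 0.12. Kif3c gave 0.40, 0.54 and 0.58, with 39.6% of its 50-base words found in other genes. All 3 CYC065 levels lay above all vehicle levels for Kif3a and Kif3c, as for Kif13b, Kif1b and Kifc2, 5 of 15 transport genes in all, beside 26.7% of all genes.

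Kif5b and Kif1c had the highest levels per kb of the transport kinesins in all 6 libraries. Kif5b, the ubiquitous heavy chain of conventional kinesin, stood at 329, 353 and 378 CPM under vehicle and at 216, 230.2 and 256 CPM under CYC065, with log2 ratios of -0.61, -0.62 and -0.56. Kif1c, a carrier of vesicles and dense-core cargo, stood at 325, 307 and 281 CPM and, under CYC065, at 307, 231 and 237 CPM, and its ratios were -0.08, -0.41 and -0.25. Kif1b, a motor for mitochondria and synaptic vesicle precursors, gave 0.56, 0.40 and 0.46. None of the 3 passed 2-fold. Kif5b was lower in every CYC065 library than in any vehicle library, and Kif1b higher. The paralog Kif5c was 0.64 in unsorted but -0.31 and -0.24 in 2N and 4N cells.

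Of the remaining transport genes, Kifc3, a minus-end motor of adherens junctions and the Golgi, was lower in every CYC065 library than in any vehicle library, with 42.3, 58.9 and 61.2 CPM under vehicle and 24.0, 24.7 and 26.0 CPM under CYC065 and ratios of -0.82, -1.26 and -1.24. Part of the exon sequence of Kifc3 (27.5%) overlaps other genes on either strand, so its counts can be uncertain. Kif17 passed 2-fold in 2N and 4N cells, with -1.33 (-2.14 to -0.61) and -1.16 (-1.97 to -0.42), on only 22 to 54 counts. The endosome motors Kif13a and Kif16b and the microtubule growth regulator Kif21a stayed within 2-fold, with ratios from -0.45 for Kif13a in unsorted cells to 0.73 for Kif21a in 4N cells. Kif1bp, the kinesin binding protein, gave -0.06, 0.17 and 0.23.

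Among kinesins with other roles, Kif24 (chr4:41390745-41464887, minus strand), which suppresses cilium assembly at the mother centriole, stood at 13.5, 10.3 and 11.5 CPM in unsorted, 2N and 4N vehicle cells and at 3.81, 4.04 and 5.76 CPM under CYC065. Its groups did not overlap, and it was called lower in unsorted cells, -1.82 (-2.05 to -1.60), and in 2N cells, -1.35 (-1.57 to -1.13); in 4N cells it stood at the threshold with -0.999 (-1.18 to -0.82). Kif26b (chr1:178529125-178939200, plus strand), a kinesin-like protein of cell adhesion and polarity, stood at 209, 99.5 and 67.4 CPM and, under CYC065, at 259, 192 and 194 CPM. It was called higher in 4N cells, with 1.53 (1.47 to 1.58), compared with 0.31 in unsorted and 0.95 in 2N cells. In 2N cells it passed 2-fold in edgeR and DESeq2 on the columns (1.03 in both). The Hedgehog regulator Kif7 and its relative Kif27 did not pass 2-fold in these 3 pairs, with ratios from -0.94 for Kif27 in unsorted cells to 0.54 for Kif7 in 4N cells.

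**Figure D3:**
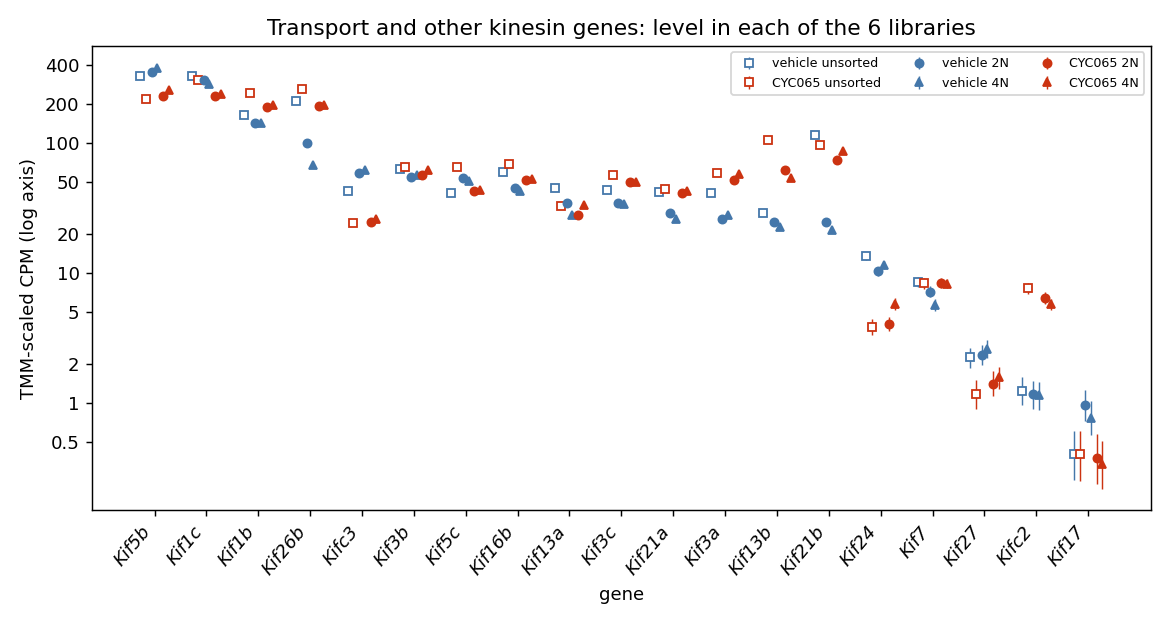
Level of each of the 15 transport and 4 other kinesin genes with at least 30 counts in the 6 libraries, in TMM-scaled CPM on a log axis, ordered by the level in 2N vehicle cells. Points, colors and 95% counting intervals are as in the plot of mitotic levels. For Kifc2 and Kif13b all red points lie above all blue points, for Kif5b, Kifc3 and Kif24 all lie below, and for Kif21b the unsorted vehicle point lies apart from both sorted vehicle points.

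The sorted cells allow the same genes to be compared between DNA contents within a treatment. In vehicle cells no kinesin was called between 4N and 2N, where 2.66% of all genes were. The mitotic kinesins had intervals above 0 in 13 of 14 cases, as 28.2% of all genes did, with a median log2 ratio of 4N over 2N of 0.50, while the transport median was -0.06 and that of all genes 0.01. The highest ratio was that of Kif2c, 0.77 (0.71 to 0.84), followed by Kif23 with 0.73 (0.68 to 0.78), and Kif2a was lowest with -0.05 (-0.10 to 0.00). In CYC065 cells 13 kinesins were called higher in 4N than in 2N cells and 0 lower, where 1.57% of 14183 genes were called higher and 2.02% lower. These 13 were the mitotic genes other than Kif2a, with a median over the class of 1.21. Their highest ratios were those of Kif14, 1.42 (1.32 to 1.52), and Kif2c, 1.41 (1.32 to 1.51), and the lowest was that of Kif15, 1.03 (0.92 to 1.14). In 9 of the 13 the interval lay wholly past 2-fold, as it did for 0.628% of all genes in that direction. Kif2a stood at 0.16 (0.11 to 0.22). No transport kinesin of 14 tested was called, and their ratios ran from -0.21 for Kif13b to 0.24 for Kif13a.

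The 4N over 2N ratio of mitotic kinesins was larger under CYC065 than under vehicle for all 14 genes. The difference between the 2 log2 ratios had a median of 0.70 over the mitotic genes, with all 14 counting intervals above 0, a median of 0.06 over transport genes, with 6 of 15 intervals above 0, and a median of 0.02 over all genes, with 27.3% of intervals above 0. No kinesin passed 2-fold in this difference, where 7.11% of 14484 genes did. It was largest for Kif14, 0.86 (0.75 to 0.98), and Kif20b, 0.84 (0.75 to 0.93), and smallest for Kif2a, 0.21 (0.14 to 0.29). The 4N CYC065 level was within 1.25-fold of the 2N vehicle level for 8 of 14 mitotic and 4 of 15 transport genes. The share over all genes was not taken, so these counts are not read as a result about either class. The log2 ratio of 4N CYC065 over 2N vehicle cells ran from -0.83 to 0.27 over the 14 mitotic genes. The 4N CYC065 library enters both this and the preceding comparisons, as do the other sorted libraries, so these values share their samples.

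**Figure D4:**
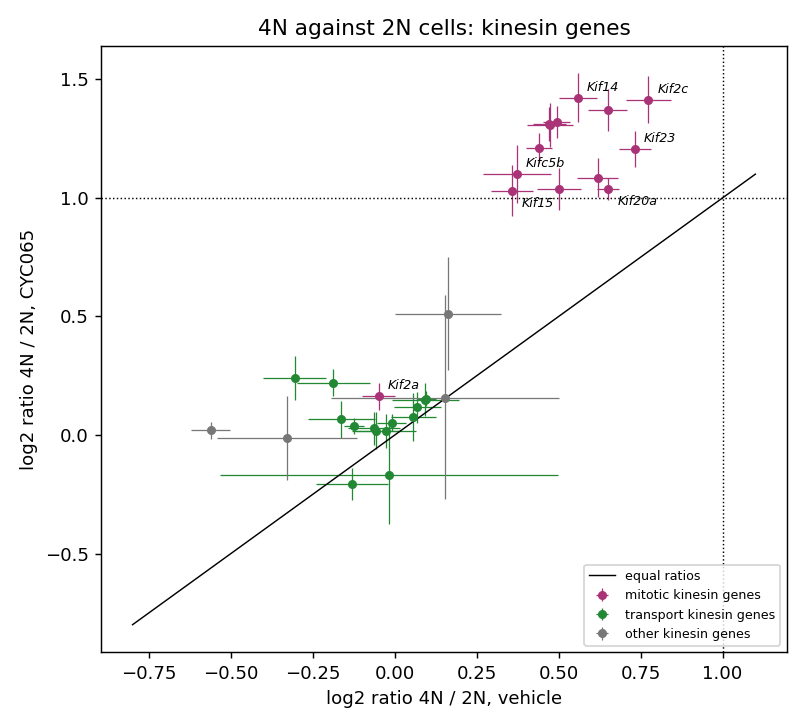
Log2 ratio of 4N over 2N cells under vehicle (x axis) and under CYC065 (y axis) for kinesin genes with a ratio in both, with 95% counting intervals on both axes. Dotted lines mark 2-fold and the solid line equal ratios. The 13 mitotic genes other than Kif2a lie together above the line, past 2-fold on the y axis only, while Kif2a and the transport genes lie near the origin.

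Genes that work with these motors were taken from lists of spindle partners and cargo adaptors. Of 13 mitotic partners, 12 were called lower with CYC065 in unsorted cells, 11 in 2N and 3 in 4N cells, beside 13.9%, 13.3% and 11.4% of all genes, with medians of -1.45, -1.31 and -0.62. Between 4N and 2N, 0 partners were called in vehicle cells, beside 2.66% of all genes, with a median of 0.62. In CYC065 cells 11 were called higher, beside 1.57% of all genes, with a median of 1.22. Their largest differences were those of Hmmr, a spindle pole protein, with a CYC065 log2 ratio of -2.18 in unsorted cells, Cenpe with -1.99 and Birc5, the survivin subunit of the chromosomal passenger complex, with -1.95. In 4N cells the same 3 genes gave -1.35, -1.29 and -1.18. Of 11 cargo adaptors, 2 were higher and 0 lower in unsorted cells and 2 were higher and 1 lower in each sorted pair, with medians of -0.17, -0.08 and -0.12. Beside the 11.7%, 14.9% and 14.1% of all genes called higher in these pairs, the adaptor counts are not read as a result about the list. The kinesin light chain Klc4 stood at 1.50, 2.40 and 2.20, the scaffold Mapk8ip3 at 1.54, 1.15 and 1.35 and the mitochondrial adaptor Rhot2 at -0.91, -1.13 and -1.12. No adaptor was called between 4N and 2N cells under either treatment, beside 2.66% of all genes under vehicle and 3.58% under CYC065. With 11 adaptors, this is not read as a result about the list either.

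Most markers of G2 and mitosis moved in the direction of the mitotic kinesins, and markers of S phase did so between treatments only. Of 10 markers of G2 and mitosis, 9 were called lower with CYC065 in unsorted cells, 8 in 2N and 4 in 4N cells, with medians of -1.63, -1.54 and -0.87. Between 4N and 2N cells their median was 0.69 under vehicle, with 0 called and 10 above 0, and 1.20 under CYC065, with 8 called higher. Ccnb2 was the 1 marker of this list above 0 with CYC065 in sorted cells, at 0.35 in 2N and 0.28 in 4N cells. Of 10 markers of S phase, 10, 9 and 8 were called lower with CYC065 in unsorted, 2N and 4N cells, with medians of -1.84, -1.46 and -1.24, while between 4N and 2N none was called and their medians were -0.18 under vehicle and 0.07 under CYC065. The shares of all genes called in these comparisons are those given with the spindle partners. The part of cell cycle phase in the differences of the mitotic kinesins was not tested. Of 6 fibroblast markers, 4 were called higher with CYC065 in unsorted cells, 4 in 2N and 2 in 4N cells. The shares of all genes called higher were 11.7%, 14.9% and 14.1%. In 4N cells 1 of the 6 lay below 0, at -0.33. Cd68, the leukocyte marker that reached 30 counts, was called higher with CYC065 in all 3 pairs, with log2 ratios of 1.42, 2.78 and 2.38. In 4N cells the epithelial marker Krt8 was called higher, 1.71 on 11 and 43 counts, and the endothelial marker Cdh5 lower, -1.79 on 91 and 30 counts. The part of these markers in the results was not tested.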

How the data were processed

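Total RNA of ED1SQ4 cells was depleted of ribosomal RNA and made into stranded paired-end libraries. Per the labels and the study's methods, the authors removed adapters (Cutadapt 1.18), mapped reads in a 2-pass STAR 2.7.0f run against mm10 and quantified genes of GENCODE M21 by RSEM. The RSEM version in the submitters' processing notes is 1.3.1, while the study's methods give a different one. The strand setting of RSEM is not given in the sources used here. The authors deposited RSEM expected counts in 3 columns for each of 6 conditions, of which 0 were left unused. They were rounded to whole numbers. Of all 55450 genes 9.66% had a fractional value, and there the columns of a condition differed by more than sampling noise. Among genes with at least 30 counts in a condition, 2518 to 2654 were fractional, beside 10512 to 11251 with whole counts.

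Columns were summed to 1 library per condition of 54750127 to 62795460 counts, scaled by TMM (edgeR 4.0.16) and compared as log2 ratios with a prior count of 0.5, a minimum of 30 counts in 1 library and a threshold of 2-fold. Intervals at 95% came from the exact binomial distribution, for differences of ratios from the normal approximation to Poisson counts. Among alternatives, edgeR and DESeq2 1.42.0 were fitted to the columns with Benjamini-Hochberg adjustment at 0.05; such fits compare these libraries, not the conditions. The fitting was tested on simulated data. Shared sequence was measured as the percentage of 50-base words of a gene's exons found in exons of other genes, on either strand. Exon overlap was also counted on either strand. In stranded libraries an overlap on the opposite strand need not share reads, and the strands were not separated. Members and lists were chosen with earlier results of these data known. Full values are given for mitotic members with at least 100 counts and for the 5 transport or other members with the largest ratios (Kifc2, Kif21b, Kif13b, Kif24 and Kif26b), other members of at least 30 counts may be named with their values, and at most 3 genes are named per partner list. Levels in each library of Kif5b, Kif1c and Kifc3 are given beyond that rule and were chosen after their values were seen.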

Additional observations from a re-analysis of the deposited data

Results flagged for a closer look

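For 3 transport kinesins the same contrast pointed in opposite directions in 2 kinds of cells, with counting intervals on opposite sides of 0 under each of 4 library scalings. With 1 library per condition these differences were not tested. Comparing 4N over 2N between treatments, or CYC065 over vehicle between 2N and 4N, gives the same difference from the same sorted libraries. Kif13a, a motor of recycling endosomes, had a log2 ratio of 4N over 2N cells of -0.3048 under vehicle and 0.242 under CYC065, and a ratio of CYC065 over vehicle of -0.2971 in 2N, 0.2496 in 4N and -0.4457 in unsorted cells. Kif21b, a regulator of microtubule growth, had a 4N over 2N ratio of -0.188 under vehicle and 0.2204 under CYC065, and its CYC065 over vehicle ratio was -0.2483 in unsorted, 1.5946 in 2N and 2.003 in 4N cells. Kif5c, a heavy chain of conventional kinesin, had a CYC065 over vehicle ratio of 0.6423 in unsorted, -0.3121 in 2N and -0.2367 in 4N cells.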

How the results depend on the processing

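No called value reversed its direction under any alternative that was run. Without a count minimum, 2 kinesins passed 2-fold between 4N and 2N vehicle cells and 4 in the difference of the 4N over 2N ratios, all with under 30 counts, and the transport median of CYC065 over vehicle in 4N cells became 0.19. Scaled by library size alone, the CYC065 medians in 2N and 4N cells were -1.27 and -0.59 for mitotic and 0.35 and 0.45 for transport kinesins, and with at least 100 counts the transport median in 2N cells was 0.31. The columns of equal number did not deviate together (correlations from -0.04 to 0.03), so the numbers do not pair them. edgeR on the columns with a replicate block called 2 kinesins higher and 12 lower in unsorted, 5 and 14 in 2N and 5 and 5 in 4N cells, and 13 higher between 4N and 2N CYC065 cells, the same counts as without the block, beside 25.1%, 27.7%, 25.5% and 3.42% of all genes in either direction. For the log2 ratios of single genes, 1811 values kept their side of the threshold and moved by no more than their counting error, 24 lost the threshold, 15 gained it and 170 moved further without crossing it. Each value that crossed the threshold came from a ratio within 0.2 of the threshold. In 4N cells Kif11 lost its CYC065 call in edgeR (-0.96), in DESeq2 (-0.96), under library size scaling (-0.87) and without replicate 1 or 3 (-0.99 and -0.98), and Kif17 lost it without replicate 1 (-0.91). Between 4N and 2N CYC065 cells Kif15 stood at 0.99 without replicate 1 and Kif18a at 0.98 without replicate 2. In unsorted cells Kifc1 and Kifc5b lost their calls in edgeR and DESeq2, and Kifc5b also without replicate 3, and in 2N cells Kif22 lost its call in both tools while Kif3a (1.07) and Kif26b (1.03) gained one. Kif3a gained it there also with DESeq2 size factors (1.01) and without replicate 1 or 2 (1.00 and 1.02). The cause was not tested. Of all genes, those with intervals wholly past 2-fold numbered 70 in place of 356 between 4N and 2N vehicle cells. They numbered 163 in place of 508 under CYC065 and 107 in place of 1030 in the difference. By the ratio alone, 120, 216 and 309 genes passed 2-fold with at least 100 counts (1.04%, 1.80% and 2.53% of those tested). Without a minimum 5457, 7212 and 9494 of 55450 passed it (9.84%, 13.0% and 17.1%), beside 2.66%, 3.58% and 7.11% with 30 counts. DESeq2 on the columns called 216, 351 and 333 past 2-fold at an adjusted p-value under 0.05. edgeR on the columns gave 538 in the difference. In the CYC065 comparisons no minimum gave 10320, 11669 and 10878 of 55450 genes in unsorted, 2N and 4N cells. The minimum of 30 counts gave 3606 of 14084, 3964 of 14093 and 3620 of 14183. Depth set 95% intervals of up to 7.43% above a mitotic level and up to 51.4% for Kif17.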
